A study of Homo sapiens with 72 samples.

Results

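Metallothioneins outside the group that the study clustered, and the genes that move zinc across membranes, were followed in irradiated and bystander human lung fibroblasts. The genes were the metallothioneins MT1F, MT1M and MT3, the transcription factor MTF1, the zinc exporter SLC30A1 and the zinc importers SLC39A8, SLC39A10 and SLC39A14. Every array probe that either version of the deposited annotation gives to 1 of these 8 genes was taken, which gave 13 of the 41000 probes. Of the 13, 11 were among the 25236 probes that passed the filter on dim spots and were tested. The other 2, MTF1 probe A_24_P932579 and SLC39A14 probe A_24_P383356, were dim on 11.1% and 23.6% of the arrays.

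The cells were IMR-90, a normal diploid fibroblast strain from human lung, used at early passage, and all groups came from this 1 strain. Irradiated cells received 0.5 Gy of α-particles through a thin dish base, bystander cells lay in the same dish on a base thick enough to stop the particles, and controls were sham-irradiated. RNA was taken at 6 time points from 0.5 hours to 24 hours in 4 experiments, with 1 array for each group, time point and experiment and 72 arrays in all. The dishes of an experiment came from 1 pool of cells, and experiment was a block in the fit. The p-values thus measure how the differences between groups varied from experiment to experiment, on a single cell strain. A difference in a total RNA sample can come from fewer cells of a kind or from less RNA per cell, and the arrays cannot tell these apart. Levels are given as log2 intensity after every array was scaled to the same 75th percentile, so a step of 1 is a doubling, and levels of different probes were not compared. Ratios are log2 differences from the control of the same experiment, and a probe was called at an adjusted p below 0.10 from limma, with experiment as a block, over all probes tested.

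The samples had the marker genes of fibroblasts. All 8 fibroblast markers examined, such as COL1A1 and VIM, were well above background on 72 of 72 arrays. PTPRC, the pan-leukocyte marker, was well above background on at most 4 arrays by either of its probes, KRT5 of basal epithelium on 1, and PECAM1 of endothelium on 2. Other markers of those cell types were measured on every array, with mean log2 levels of 12.92 for TEK, 9.03 for CD68 and 8.39 for the brighter SFTPC probe.

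The experiments were unequally alike. Over all tested probes, the spread of the difference between the arrays of experiments 1 and 2 (scaled median absolute deviation, log2) had a median of 0.33 over the 18 groups, against medians of 0.47 to 0.60 for the other 5 pairings. Experiments 1 and 2 were the closest pair in 14 of the 18 groups. At 24 hours, experiment 3 stood apart in the mean of its 3 dishes, with 46 probes over 3 log2 units above the mean of every other experiment. The probes furthest apart there were those of the interleukin gene IL6 (means of 18.04 in experiment 3 and 9.53 to 9.97 in the others) and of IL23A (13.46 against 6.35 to 7.16). SLC39A8 and 2 probes of SLC39A14 were among the 46. By the same measure experiment 4 had 13 probes below the others at 0.5 hours, 9 above and 5 below at 2 hours, and 10 above and 7 below at 24 hours, and experiment 2 had 11 below at 24 hours. No other experiment and time had more than 6. Calls of the 8 genes that were lost when 1 experiment was left out are named beside the results, and for the other genes called the counts without an experiment stand beside the main counts.

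Metallothioneins are small proteins rich in cysteine that bind zinc and copper and scavenge radicals. When free zinc rises, the zinc finger factor MTF1 binds short metal response elements in promoters and raises the transcription of metallothioneins and of SLC30A1, which exports zinc from the cytosol. Proteins of the SLC39 family carry zinc the other way, into the cytosol, and SLC39A8 and SLC39A14 are also known to respond to inflammatory signals.

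Promoters of the members are shown because their metal response elements are the sites through which MTF1 is known to act. Sequences of 250 bases before the start of transcription were taken from RefSeq (GRCh38.p14), where entries were used for MTF1, SLC30A1, SLC39A10 and SLC39A8. The core of the element was searched as TGCACNC or TGCGCNC on both strands, with overlapping matches counted separately, and capitals mark the matches. MT2A, of the metallothioneins that the study clustered, is shown beside the members for comparison.
SLC30A1, chr1:211579162-211579411 (- strand): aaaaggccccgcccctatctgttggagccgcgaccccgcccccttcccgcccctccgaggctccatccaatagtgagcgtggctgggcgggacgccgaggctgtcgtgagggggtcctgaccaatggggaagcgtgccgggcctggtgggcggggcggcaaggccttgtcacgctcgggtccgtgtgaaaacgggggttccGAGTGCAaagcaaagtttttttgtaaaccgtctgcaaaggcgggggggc
SLC39A8, chr4:102345483-102345732 (- strand): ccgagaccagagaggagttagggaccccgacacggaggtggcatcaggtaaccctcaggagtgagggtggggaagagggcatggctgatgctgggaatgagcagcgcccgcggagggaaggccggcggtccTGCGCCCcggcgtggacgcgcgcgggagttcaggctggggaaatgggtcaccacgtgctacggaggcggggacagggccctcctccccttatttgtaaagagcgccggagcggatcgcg
MT2A, chr16:56608334-56608583 (+ strand): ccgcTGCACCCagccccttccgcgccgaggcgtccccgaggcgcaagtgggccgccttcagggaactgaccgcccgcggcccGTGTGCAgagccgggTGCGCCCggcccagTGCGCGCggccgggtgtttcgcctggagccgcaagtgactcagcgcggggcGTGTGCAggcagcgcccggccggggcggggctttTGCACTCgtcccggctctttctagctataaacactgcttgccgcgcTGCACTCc

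The SLC30A1 promoter held 1 core, on the opposite strand 49 bases before the start. The SLC39A8 promoter, at the most upstream of its 3 listed starts, held 1 core 119 bases before the start, and the windows of its other 2 starts held none. No match was found in the windows of MTF1 and of the 2 listed starts of SLC39A10. MT2A held 7 cores, MT1H 8, MT1X 4 and MT1B 3. Of 35116 promoter entries of the same length, 24.8% held at least 1 core and 1.58% held at least 3. A match describes these letters only, and binding was not measured.

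MT1M (probe A_23_P66241) was called higher in irradiated cells at 0.5, 2 and 6 hours. Bystander cells passed at the first 2 of these times. At 0.5 hours its control levels were 10.33, 10.16, 10.72 and 10.70 in experiments 1 to 4. Irradiated cells had 14.60, 14.30, 12.66 and 11.89, and bystander cells had 14.59, 14.71, 13.11 and 11.04. All treated arrays were above all control arrays, and experiments 1 and 2 were the highest in both treatments. Over all tested probes 8.87% had no overlap with controls, in either direction, in irradiated cells at 0.5 hours, and 6.28% in bystander cells. The log2 ratios were 2.88 ± 1.55 (SD of 4 pairs) in irradiated cells, a 7.38-fold difference with adjusted p = 0.0361, and 2.89 ± 1.95 in bystander cells, a 7.39-fold difference with adjusted p = 0.0346.

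At 2 hours the MT1M levels lay close together within each group. Controls were at 10.26, 10.55, 11.17 and 10.95, irradiated cells at 12.34, 12.35, 12.54 and 12.47, and bystander cells at 12, 12.16, 11.87 and 12. The groups did not overlap, as was so for 4.13% (irradiated) and 2.69% (bystander) of all probes. The log2 ratio was 1.69 ± 0.31 after irradiation (adjusted p = 0.000966) and 1.27 ± 0.49 in bystanders (adjusted p = 0.0164). Of all calls made for the members, the irradiated call at 2 hours was the 1 that was also made under all 15 alternative settings. The bystander call was not made without experiment 1 (ratio 1.12, adjusted p = 0.287) or without experiment 2 (1.16, adjusted p = 0.434). With the array slide as a fixed block beside experiment it was also lost (1.35, adjusted p = 0.17).

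At 4, 6 and 24 hours the experiments parted. At 4 hours MT1M reached 14.37 and 13.83 in irradiated cells of experiments 1 and 2, and 11.19 and 11.79 in experiments 3 and 4, against controls of 10.40, 10.43, 10.47 and 10.87. Every treated array was above every control array at 4 hours in both treatments, yet the ratios of 2.25 ± 1.67 and 2.35 ± 2.00 (bystander) did not pass (adjusted p = 0.131 and 0.143). Of all probes 3.27% and 4.56% were apart from controls at that time. By 6 hours the controls themselves were split, at 13.06 and 13.92 in experiments 1 and 2 and at 10.54 and 10.27 in experiments 3 and 4. Within experiments the irradiated level was still higher in 4 of 4, with a ratio of 1.36 ± 0.58 (adjusted p = 0.0147), and the bystander ratio was 0.97 ± 0.65 (adjusted p = 0.154). At 24 hours the control of experiment 3 had 13.47 while the other controls had 9 to 10.83, and the ratios of 1.82 ± 1.51 and 1.41 ± 1.52 did not pass.

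MT1F (probe A_23_P15174) was called higher at the same times as MT1M in irradiated cells, and at 0.5 hours in bystander cells. At 0.5 hours controls had log2 levels of 4.65, 4.62, 6.12 and 5.71. Irradiated cells had 9.68, 9.87, 7.82 and 6.77, and bystander cells had 9.93, 9.82, 8.30 and 7.19. All treated arrays exceeded all controls, where the shares of all probes apart are those given for MT1M, with log2 ratios of 3.26 ± 2.19 (9.59-fold, adjusted p = 0.0385) and 3.53 ± 1.99 (11.6-fold, adjusted p = 0.0311). A ratio of 1.47 ± 0.36 passed for MT1F in irradiated cells at 2 hours (adjusted p = 0.0403). That call was lost without experiment 1 (1.40, adjusted p = 0.238), 2 (1.35, adjusted p = 0.175) or 3 (1.61, adjusted p = 0.154). The irradiated ratio at 6 hours was 1.58 ± 0.81 (adjusted p = 0.0260). At 4 hours the ratios were 4.04, 4.57, -0.79 and 1.89 in irradiated cells of experiments 1 to 4, and the mean of 2.43 did not pass (adjusted p = 0.229). Experiment 3 alone was lower there, its control being at 7.47, and 2 of the 4 controls at that time were not well above background.

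**Figure D1:**
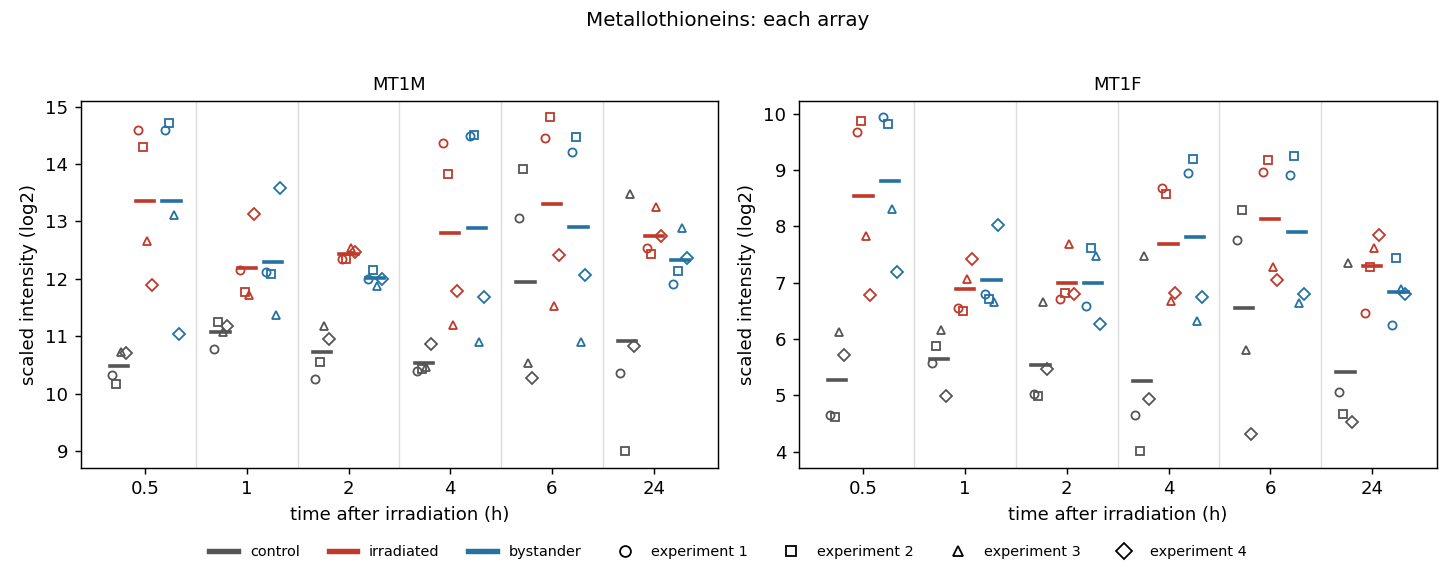
Scaled log2 intensity of MT1M (left) and MT1F (right) on each of 72 arrays, by time in hours; colours are treatments, symbols are experiments and bars are group means of 4 arrays. MT1M in treated cells lay above the controls at 0.5, 1, 2 and 4 hours (at 1 hour 4.89% of all probes in irradiated and 1.74% in bystander cells were apart from controls), and at 6 hours the controls of experiments 1 and 2 were at 13.06 and 13.92.

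At 0.5 hours the calls of both metallothioneins were lost without experiment 1 or without experiment 2, and no probe of the whole array was called at that time without experiment 2. Without experiment 1 the irradiated ratios were 2.42 for MT1M (adjusted p = 0.105) and 2.67 for MT1F (adjusted p = 0.106). Without experiment 2 they were 2.46 (adjusted p = 0.179) and 2.60 (adjusted p = 0.189). The bystander calls were lost in the same way. Without experiment 1 the bystander ratios were 2.43 for MT1M (adjusted p = 0.138) and 2.95 for MT1F (adjusted p = 0.127). Leaving out experiment 2 gave 2.33 (adjusted p = 0.188) and 2.98 (adjusted p = 0.171). Without experiment 4 the ratios were larger, at 3.73 and 4.22 in bystander and 3.45 and 3.99 in irradiated cells, and the calls were made. At 6 hours the irradiated calls of MT1M and MT1F were also made with each experiment left out in turn, with MT1M ratios from 1.09 to 1.51 and MT1F ratios from 1.19 to 1.81. Both were lost with slide as a fixed block in place of experiment (adjusted p = 0.271 for MT1M and 0.206 for MT1F) and with no replicate block (0.532 and 0.409). Both were made with slide beside experiment (0.0282 and 0.0422). That fit lost the MT1F calls at 0.5 hours (adjusted p = 0.12 in irradiated and 0.139 in bystander cells) and at 2 hours (0.17). The MT1M calls at 0.5 hours were made in it (0.0886 in irradiated and 0.0982 in bystander cells).

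MT3, a metallothionein known mainly from brain, had 2 probes that passed the filter and none of its values was called in the main fit. Of the 2 MT3 probes, A_23_P315273 is shown because it shared the longest stretch with other metallothionein probes. It shared a run of 15 bases, of 60, with MT1E probe A_23_P206724 and with MT1H probe A_23_P414343. Capitals mark this run, and the MT1H probe is printed below it.
MT3 probe A_23_P315273: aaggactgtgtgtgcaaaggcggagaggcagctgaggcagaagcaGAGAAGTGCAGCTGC
MT1H probe A_23_P414343: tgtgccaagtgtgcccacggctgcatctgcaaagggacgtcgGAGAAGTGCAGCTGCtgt

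This MT3 probe had log2 levels from 5.21 to 7.52 over the 24 controls, with a median of 5.59. In irradiated cells it ran from 4.42 to 9.80 (median 5.76) and in bystander cells from 4.90 to 8.88 (median 5.89). The highest values in both treatments were those of experiment 3 at 24 hours. The other MT3 probe, A_23_P129629, had control levels from 8.99 to 14.34 (median 12.14), and was missing on 3 of the 72 arrays because of non-uniform spots. Its lowest adjusted p was 0.102, at 0.5 hours in irradiated cells, where the pairs differed by 0.12, -1.40, -0.53 and -1.46. The log2 ratio there was -0.82 ± 0.76. The 2 MT3 probes did not move together, with r = -0.137 over the 69 arrays that measured both, after the mean of each experiment and time point was removed. The longest runs that the MT1F and MT1M probes shared with a probe of another metallothionein were 19 bases (MT1L) and 9 bases (MT2A). Probes were compared with probes and not with transcripts, so these runs do not measure how specific a probe is. Binding of related transcripts to a probe was not measured.

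MTF1 itself changed little. Probe A_23_P74241 had control levels of 10.52, 10.14, 10.47 and 10.82 at 0.5 hours, irradiated levels of 11.11, 11.11, 10.62 and 11.25, and bystander levels of 10.81, 11.10, 10.40 and 10.75. The groups overlapped. Irradiated cells at 0.5 hours were the only comparison of MTF1 with control that was called, with a log2 ratio of 0.53 ± 0.34 (1.45-fold, adjusted p = 0.0973), and the call was made in 4 of the 15 alternatives. It was lost without experiment 1 (adjusted p = 0.212), 2 (0.210) or 4 (0.241). Its other 11 ratios to control lay from -0.01 to 0.42. At 1 hour the 4 irradiated arrays, at 11.32 to 11.47, were all above the controls at 10.60 to 11.29, where 4.89% of all probes were apart from controls, and the ratio of 0.42 did not pass (adjusted p = 0.141).

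**Figure D2:**
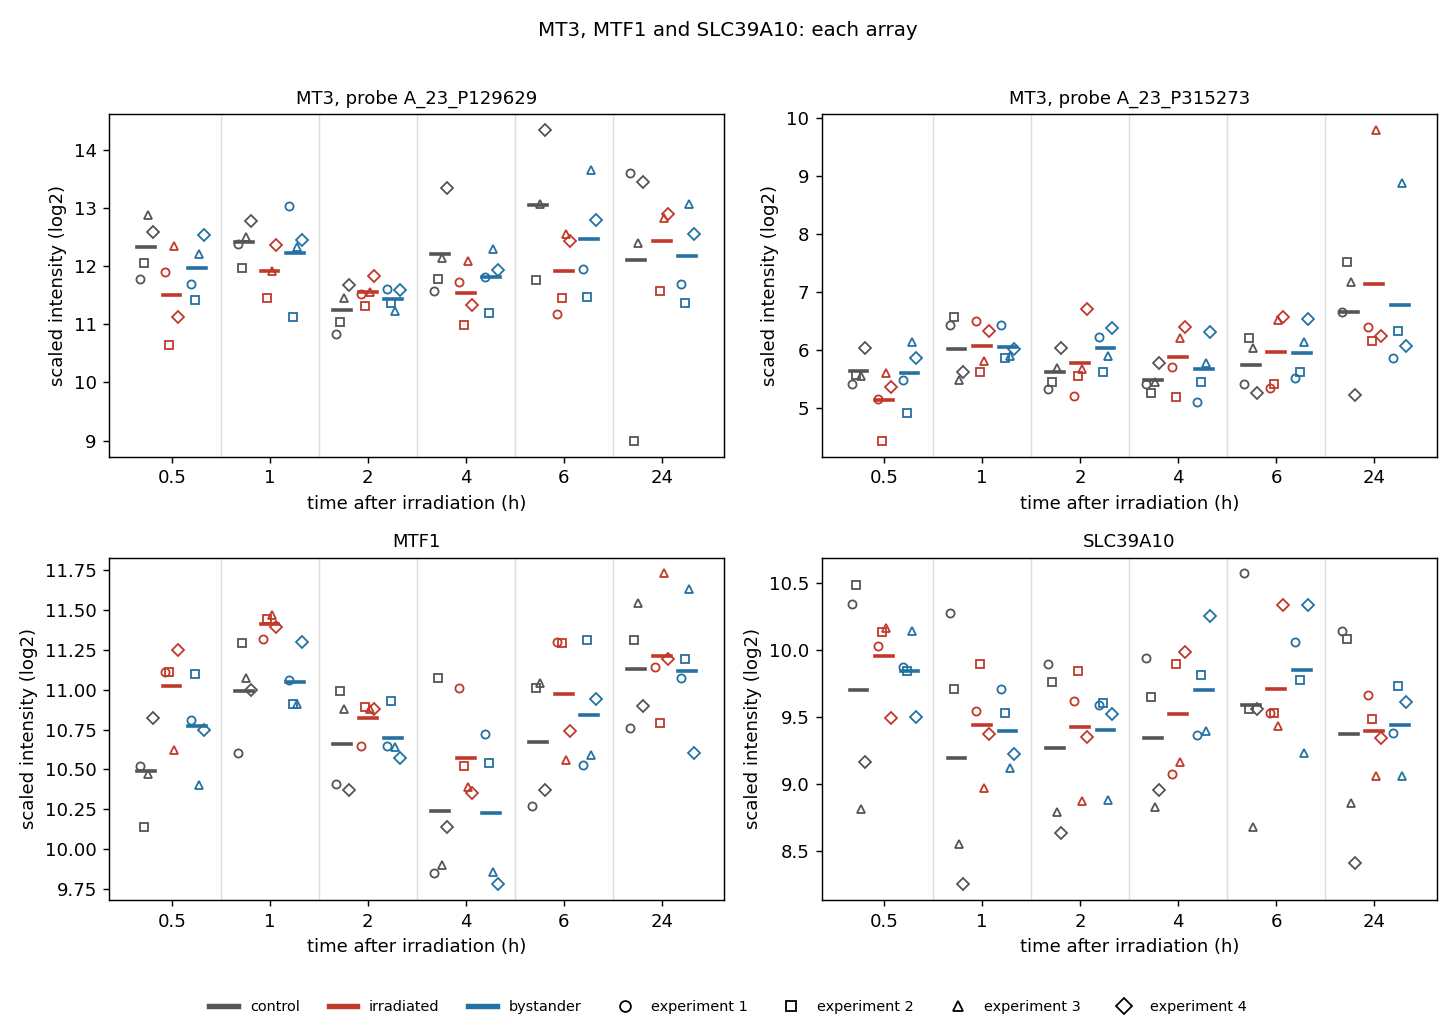
Scaled log2 intensity of the 2 MT3 probes, MTF1 and SLC39A10 on each array, by time in hours; colours are treatments, symbols are experiments and bars are group means of up to 4 arrays. Treated and control arrays overlap at nearly every time, and MTF1 was called once, in irradiated cells at 0.5 hours.

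SLC30A1, the exporter, was called higher at 0.5 hours by both of its probes. For probe A_24_P937095 the controls at 0.5 hours had log2 levels of 11.35, 11.29, 10.12 and 10.40, the irradiated cells 12.29, 12.27, 11.64 and 10.96, and the bystander cells 12.36, 12.43, 11.72 and 10.84. The groups overlapped because the controls of experiments 1 and 2 were high, but each treated array was above its own control. The ratios were 1.00 ± 0.40 in irradiated cells (adjusted p = 0.0275) and 1.05 ± 0.48 in bystander cells (adjusted p = 0.0218). Probe A_23_P23815 had ratios of 0.79 ± 0.33 (adjusted p = 0.0323) and 0.79 ± 0.39 (adjusted p = 0.0319). Without experiment 2 no probe of the array was called, these 2 included (adjusted p = 0.177 for each in irradiated and 0.156 for each in bystander cells), while their ratios stayed at 1.01 and 0.80 in irradiated and 1.02 and 0.88 in bystander cells. Without experiment 1 the irradiated call of A_24_P937095 was still made (adjusted p = 0.0929), and the other 3 were not (adjusted p from 0.109 to 0.156).

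Later the 2 SLC30A1 probes were called at different times. Probe A_24_P937095 was called in irradiated cells at 4 hours, with a log2 ratio of 1.00 ± 0.41 (adjusted p = 0.0995), and the other probe at 6 hours, with 0.70 ± 0.35 (adjusted p = 0.0601). The call at 4 hours was made in 2 of the 15 alternatives, and was lost with any 1 experiment left out (adjusted p from 0.134 to 0.235). The call at 6 hours was lost without experiment 1 (adjusted p = 0.139), 2 (0.165) or 4 (0.222). By 24 hours the ratios of the 2 probes lay from -0.35 to 0.15. The probes had r = 0.796 with each other over the 72 arrays, by the measure used for MT3.

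Among the importers, SLC39A14 had the most calls. Probe A_23_P59950 had control levels of 12.04, 12.14, 11.66 and 11.66 at 0.5 hours and irradiated levels of 12.85, 12.84, 12.45 and 12.21, with no overlap (8.87% of all probes). The bystander levels of 12.81, 12.91, 12.61 and 11.91 overlapped the controls by 1 array. The ratios were 0.71 ± 0.12 (adjusted p = 0.0316) and 0.68 ± 0.30 (adjusted p = 0.0311), so the ratios of the 4 irradiated pairs lay close together, from 0.55 to 0.80. Both calls were lost without experiment 1 (ratios 0.68 and 0.66, adjusted p = 0.109 and 0.149) or 2 (0.71 and 0.66, adjusted p = 0.177 and 0.176), so the ratios moved little. Irradiated cells passed again 3 times, with a ratio of 0.51 ± 0.38 at 2 hours (adjusted p = 0.0874). It was 0.88 ± 0.41 at 4 hours (adjusted p = 0.0593). The ratio at 6 hours was 0.70 ± 0.40 (adjusted p = 0.0705). The call at 2 hours was lost without experiment 1, 2 or 3 (adjusted p from 0.189 to 0.287), and those at 4 and 6 hours were lost without experiment 1, 2 or 4 (adjusted p from 0.123 to 0.382).

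The largest ratio of this SLC39A14 probe was in bystander cells at 4 hours. Controls were then at 12.29, 12.15, 12.01 and 12.34 and bystander cells at 13.45, 13.70, 12.43 and 13.48, which gave 1.07 ± 0.47 (adjusted p = 0.0369). The groups did not overlap (4.56% of all probes), and experiment 3 had the smallest difference. The call was lost without experiment 1 (adjusted p = 0.217), 2 (0.154) or 4 (0.132), and with slide beside experiment (0.15). Probe A_24_P333479 was called at 0.5 hours alone, with ratios of 0.93 ± 0.50 in irradiated cells (adjusted p = 0.0432) and 0.92 ± 0.47 in bystander cells (adjusted p = 0.0478). Both calls were made without experiment 3 and were lost without experiment 1, 2 or 4 (adjusted p from 0.110 to 0.177). At 24 hours the first probe stood at 14.68 in the control, 15.75 in the irradiated and 15.72 in the bystander dish of experiment 3, against 11.25 to 12.07 on the 9 other arrays of that time.

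SLC39A8 (probe A_23_P41424) was called at 0.5 and 4 hours in both treatments. At 4 hours its log2 levels were 5.88, 5.55, 4.87 and 4.21 in controls, 6.45, 6.85, 6.35 and 5.92 in irradiated cells and 7.06, 7.26, 6.14 and 6.08 in bystander cells. No treated array was as low as a control, when 3.27% (irradiated) and 4.56% (bystander) of all probes were apart from controls, and 1 of the 4 controls was not well above background. The ratios were 1.26 ± 0.50 (adjusted p = 0.0395) and 1.51 ± 0.33 (adjusted p = 0.0259). The irradiated call was lost whichever experiment was left out (adjusted p = 0.146, 0.112, 0.205 and 0.185 without experiments 1 to 4). The bystander call was lost without experiment 1 (adjusted p = 0.118), 2 (0.152) or 4 (0.107), and with slide beside experiment (0.151).

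At 0.5 hours the SLC39A8 ratios were 1.40 ± 0.60 (adjusted p = 0.0323) and 1.35 ± 0.69 (adjusted p = 0.0333), again without overlap (8.87% and 6.28% of all probes), and 1 of the 4 controls was not well above background there. Both calls were lost without experiment 2, as were all others on the array, at ratios of 1.42 and 1.34 (adjusted p = 0.177 and 0.184). The bystander call was also lost without experiment 1 (ratio 1.32, adjusted p = 0.139). At 24 hours the 3 dishes of experiment 3 had 9.94, 10.99 and 10.85, while the 9 other arrays had 4.69 to 5.90. Neither treatment was called at 24 hours with or without experiment 3.

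SLC39A10, an importer of the same family, was not called in any comparison of the main fit. Its control levels ran from 8.25 to 10.57 with a median of 9.56. Its 12 ratios to control lay from 0.02 to 0.36, with adjusted p from 0.502 to 0.985. At 0.5 hours the irradiated pairs differed by -0.32, -0.35, 1.36 and 0.33, so the experiments did not share a direction.

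**Figure D3:**
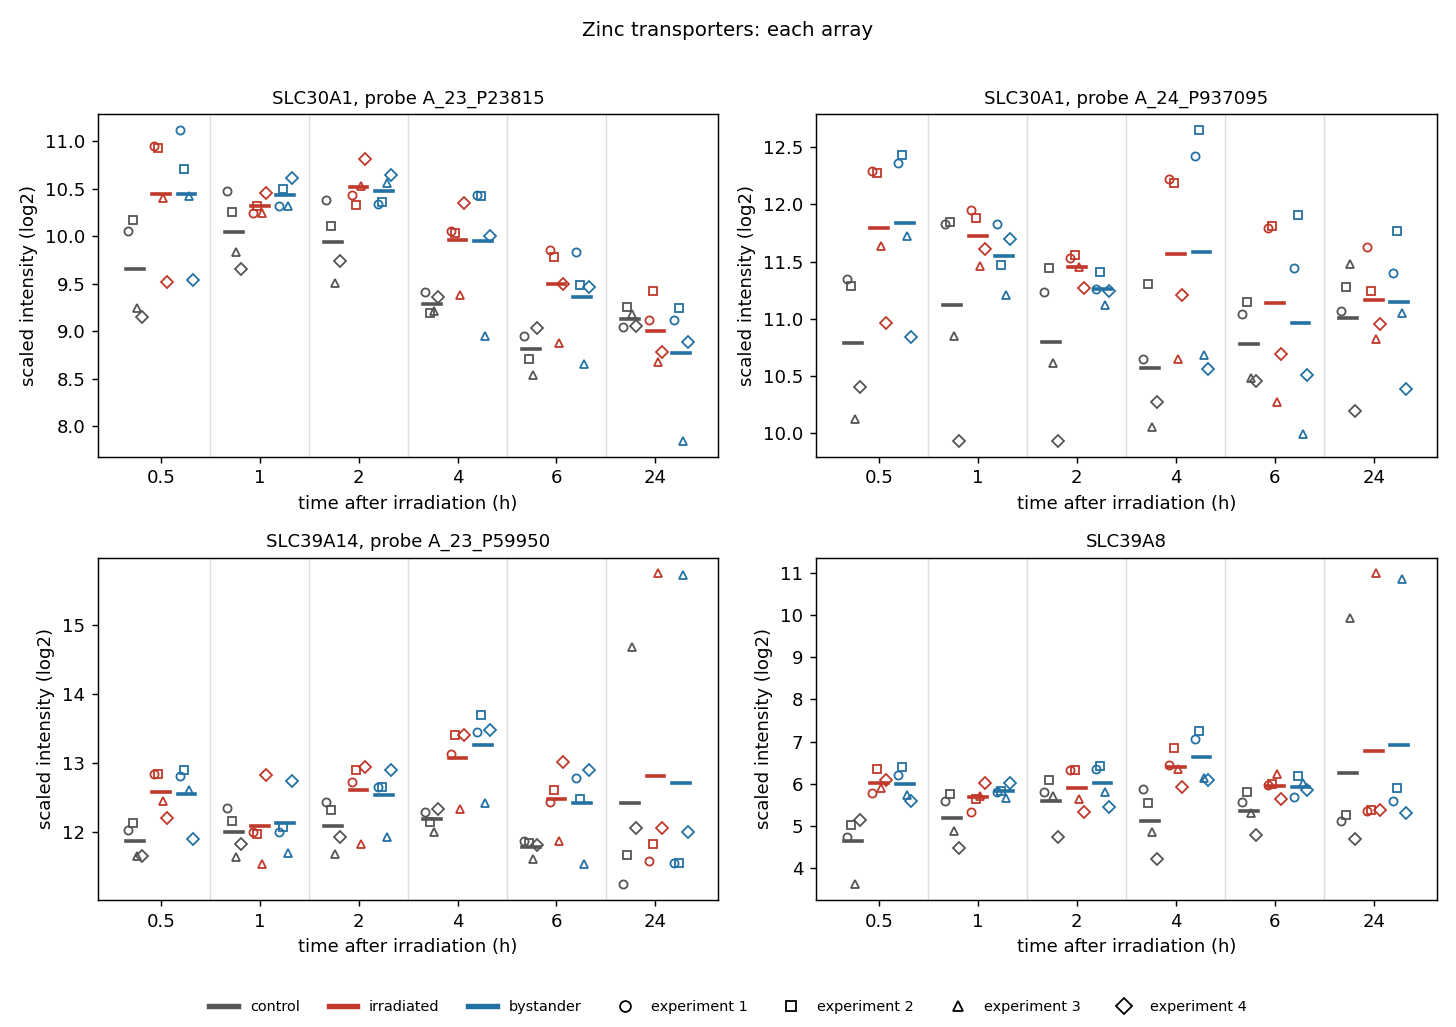
Scaled log2 intensity of SLC30A1 (2 probes), SLC39A14 (probe A_23_P59950) and SLC39A8 on each array, by time in hours; colours are treatments, symbols are experiments and bars are group means of 4 arrays. At 24 hours experiment 3 (triangles) stood at 14.68 to 15.75 for SLC39A14 and at 9.94 to 10.99 for SLC39A8 in all 3 treatments.

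Of the 11 tested probes, 8 were called higher in irradiated cells at 0.5 hours, where 5.78% of all tested probes were called higher and 9.88% in either direction. The count was 3 at 2 hours, with 3.09% of all probes higher and 5.78% in either direction. It was 3 at 4 hours (0.769% higher, 0.999% in either direction) and 4 at 6 hours (4.89% higher, 10.5% in either direction). The count at 0.5 hours was 1 when slide replaced experiment as a fixed block, where 0.162% of all probes were called higher, and 5 when both were in the fit (0.86%).

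In bystander cells 7 of the 11 probes were called higher at 0.5 hours, with 4.24% of all probes higher and 7.01% in either direction. When slide replaced experiment, 2 were called (0.769% of all probes higher), and with both in the fit 3 were (0.432%). Calls over the whole array thus dropped too in these fits. At 2 hours 1 was called (0.194% higher, 0.218% in either direction), and at 4 hours 2 were called (0.487% higher, 0.59% in either direction). At 6 hours none was called (0.214% higher, 0.289% in either direction). No member probe was called lower in any comparison with control in the main fit. Over all probes the lower calls in irradiated cells made up 4.1%, 2.69%, 0.23%, 5.62% and 0.0594% at 0.5, 2, 4, 6 and 24 hours, respectively. The corresponding shares for bystander cells were 2.77%, 0.0238%, 0.103% and 0.0753% at 0.5, 2, 4 and 6 hours. There were 28 calls of member probes in all, 18 in irradiated and 10 in bystander cells. Both comparisons used the same control arrays, so the 2 sets of calls are not independent.

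The members' median log2 ratio was 0.79 in both treatments at 0.5 hours, against -0.03 (irradiated) and 0.00 (bystander) over all tested probes. At 4 hours it was 0.66 and 1.01, but 4 of the 11 probes had been kept by the study for a difference in these same samples, so this is a description only. The other 7 had medians of 0.40 and 0.36, against -0.01 and -0.04 over all probes. At 1 hour and at 24 hours limma called no member in either treatment, nor at 6 hours in bystander cells, and these member counts were 0 in all alternatives but 1. The exception was MT1M in irradiated cells at 1 hour, which was called with slide beside experiment (log2 ratio 1.33, adjusted p = 0.0922, against 0.138 with experiment alone and 0.106 to 0.429 in the other alternatives), where 1.13% of all probes were called higher. At 1 hour 3 of the 11 member probes had an unadjusted p below 0.05 in irradiated cells and 4 in bystander cells, where 26.9% and 14.3% of all probes did. At 24 hours 3 member probes did in each treatment, against 13.2% and 11.1% of all probes, and at 6 hours 6 did in bystander cells, against 14.5%. Over all probes no call was made at 1 hour (0%), and in irradiated cells at 24 hours 0.115% were called higher and 0.174% in either direction. None was called in bystander cells at 24 hours. These counts of 0 over all probes did not hold in every alternative, since without the variance trend 2 probes were called at 1 hour in each treatment and 1 in bystander cells at 24 hours, and without scaling 26 were called in bystander cells at 24 hours. With both slide and experiment in the fit, 444 were called in irradiated cells at 1 hour, and 5 in bystander cells at 24 hours.

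**Figure D4:**
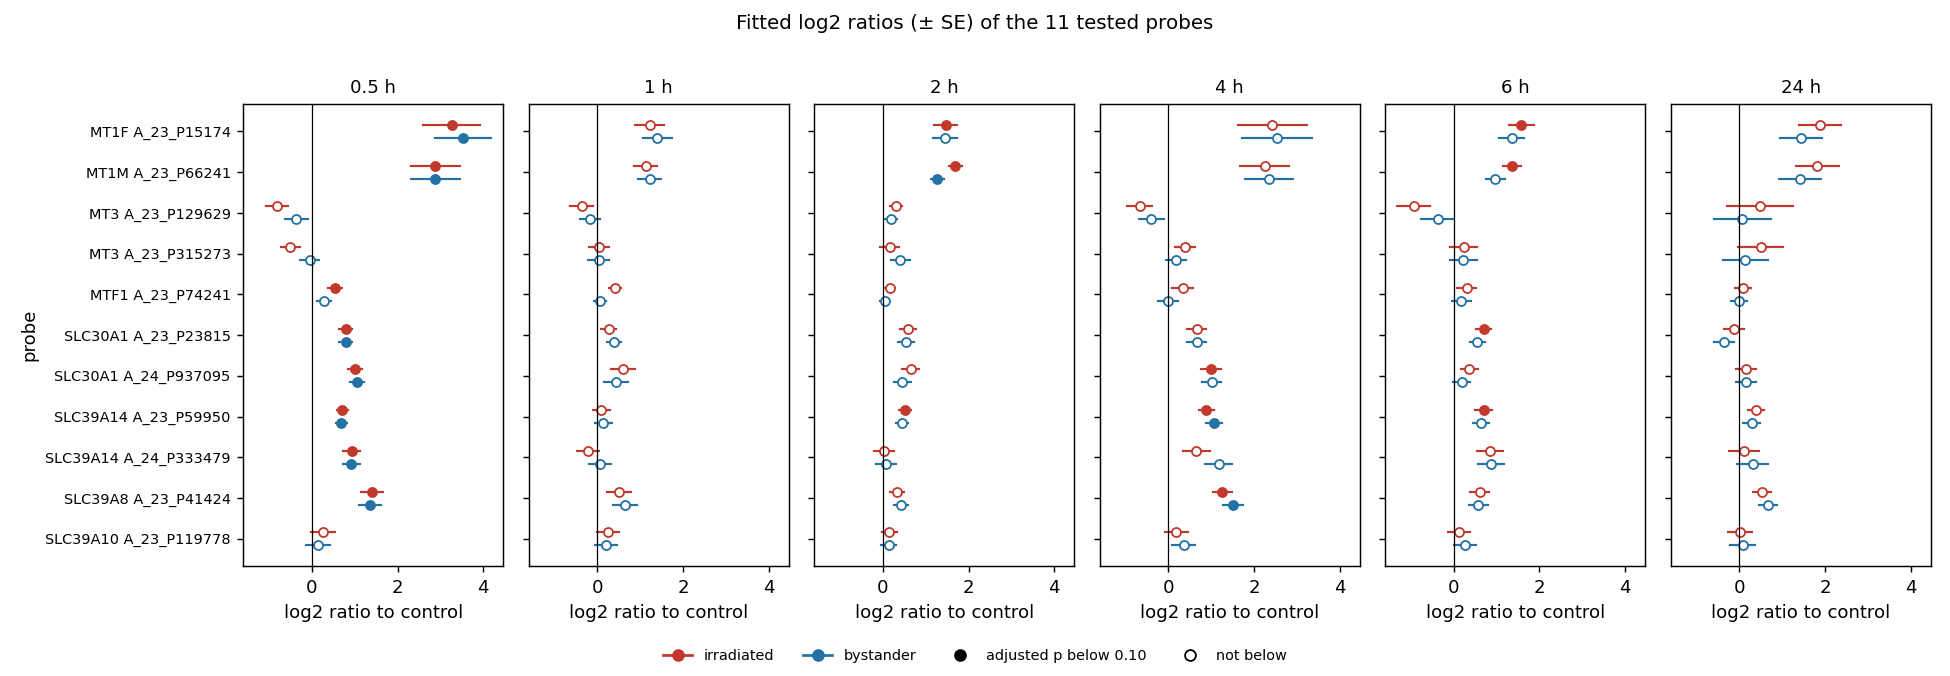
Fitted log2 ratio to control of the 11 tested probes at each time (1 panel per time), with bars of 1 standard error, for irradiated and bystander cells of 4 experiments; filled points passed an adjusted p of 0.10. Called probes number 8 and 7 at 0.5 hours in irradiated and bystander cells, and none at 1 and 24 hours.

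The study had kept these 4 of the 11 probes because they differed in an earlier analysis of its 4-hour samples, namely SLC30A1 probe A_24_P937095, both tested SLC39A14 probes and SLC39A8. The 5 calls made at 4 hours all fell on these probes and are not independent evidence of a change. The metallothioneins MT1F and MT1M were not among them.

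Among the fits with 1 experiment left out, the count of calls was lowest without experiment 1 or 2. There 5 and 3 of the 28 calls were made, against 24 without experiment 3 and 18 without experiment 4. The ratios moved less than the counts. At 0.5 hours in irradiated cells those of SLC30A1 (A_24_P937095), SLC39A14 (A_23_P59950) and SLC39A8 were 1.02, 0.68 and 1.52 without experiment 1 and 1.01, 0.71 and 1.42 without experiment 2, against 1.00, 0.71 and 1.40 with all 4, while those of MT1M and MT1F were smaller, as given above. At 0.5 hours 3 member probes were called in irradiated cells without experiment 1 and 0 without experiment 2. Of the 3, SLC39A8 and SLC30A1 probe A_24_P937095 were also called with all 4 experiments. The other was a probe of MT3 or of SLC39A10, neither of which was called there with all 4 experiments. Counts of members under the alternatives take calls in either direction. In bystander cells 0 were called without experiment 1 and 0 without experiment 2. In bystander cells only 3 of all probes were called without experiment 1 and none without experiment 2, against 1768 with all 4 experiments, so these counts of 0 are no result about the members. Without experiment 3 the counts were 8 and 7, with 3.41% and 2.34% of all probes called higher, and without experiment 4 they were 6 and 6, with 1.2% and 1.8%. With experiments 1 and 2 averaged and counted as 1, which is an alternative chosen after seeing the data, 3 of the 28 calls were made, and these were MT1M at 2 and 6 hours and MT1F at 6 hours, all in irradiated cells. Of all probes 0.0872% and 2.2% were then called higher in irradiated cells at 2 and 6 hours, and none at 0.5 hours in either treatment. In irradiated cells at 0.5 hours the count over all probes likewise went from 2494 to 490 without experiment 1 and 0 without experiment 2. Whether the likeness of these 2 experiments played a part was not tested. All 28 ratios kept their sign under all alternatives, between 0.13 and 4.22.

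Slides were a batch that crossed the experiments. At each time the 12 arrays lay on 3 slides, and all 3 arrays of an experiment shared a slide in 2 of the 4 experiments. The irradiated array was on the slide of its control in 3 of the 4 experiments and the bystander array in 2 of the 4. In experiment 2 the control lay on the first slide and both treated arrays on the second at every time, so its ratios cross slides. When slide was the fixed block in place of experiment, 5 of the 28 calls were made, namely MT1M in irradiated cells at 2 hours, MT1F in bystander cells at 0.5 hours, and SLC39A8 in both treatments at 0.5 hours and in bystander cells at 4 hours. With slide and experiment both fixed, an alternative chosen after seeing the data, 14 were made. In irradiated cells these were MT1M at 0.5, 2 and 6 hours, MT1F at 6 hours and both SLC30A1 probes at 0.5 hours. SLC39A8 at 0.5 and 4 hours and SLC39A14 probe A_23_P59950 at 0.5, 4 and 6 hours were the others there. In bystander cells they were MT1M, SLC30A1 probe A_24_P937095 and SLC39A14 probe A_23_P59950, all at 0.5 hours. With slide as a random block beside experiment all 28 were made. The estimated correlation within slides was near or below 0 (-0.248 to 0.084 over the 6 times), so that fit is no check on the calls. Within slides, the treated mean minus the control mean of the 28 called values lay from 0.15 to 5.29 on the log2 scale over the 3 slides. These differences ignore the pairing, since a slide can hold the treated arrays of 1 experiment with the control of another, and the values were chosen because they were called, so they are a description only.

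**Figure D5:**
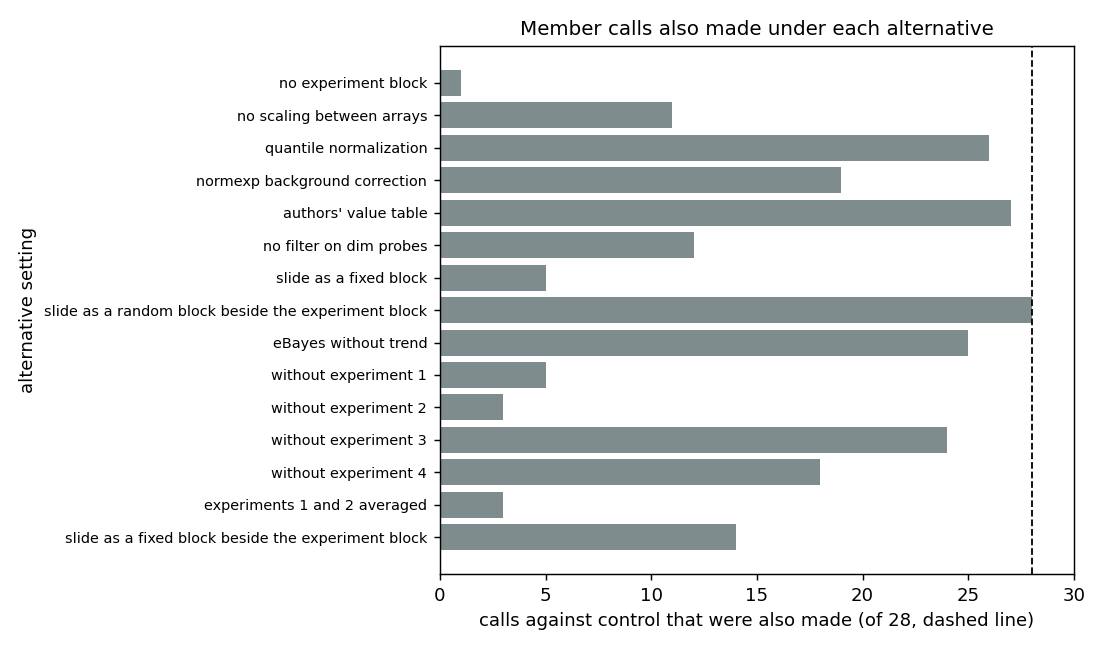
Number of the 28 calls of members against control that were also made under each of 15 alternative settings (bars, axis from 0; dashed line at 28). The lowest count was 1, with no replicate block. Between 3 and 5 were made without experiment 1 or 2 or with the 2 averaged, and 5 with slide in place of experiment. Without scaling 11 were made, without the filter on dim probes 12, with slide and experiment both in the fit 14, and without experiment 3 24.

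Irradiated and bystander cells were compared directly at each time. No member was called in the 66 tests, and the lowest adjusted p was 0.922. An unadjusted p below 0.05 was found for 1 of the 11 at 1 hour (MTF1) and 1 at 2 hours (MT1M), against 4.94% and 1.12% of all probes. The background of calls was 0.0436% at 2 hours, 0.00793% at 4 hours and 0 at the other times. The differences (irradiated minus bystander, log2) lay from -0.56 for MT3 probe A_23_P129629 to 0.45 for MT1F, with standard errors up to 0.81. MT1M at 2 hours differed by 0.42 ± 0.15 (SE, unadjusted p = 0.0209), with irradiated higher in 4 of 4 experiments. The residual variance of each probe was fitted over control, irradiated and bystander arrays together, so scatter of the controls entered these standard errors. Over all probes, unadjusted p-values below 0.05 made up 2.16%, 1.3%, 1.51% and 0.396% at 0.5, 4, 6 and 24 hours. These shares are below what chance alone gives at that threshold. A fit without the controls was not tested. Neither the absence of calls nor these values show that the treatments acted alike.

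Other genes of zinc and stress handling were read from the same fit. The 13 tested probes of the 8 metallothioneins that the study clustered were all called higher in irradiated cells at 0.5, 2, 4 and 6 hours, and in bystander cells 13, 11, 10 and 10 were called at these times. Of all probes 5.78%, 3.09%, 0.769% and 4.89% were called higher in irradiated cells at these times, and 4.24%, 0.194%, 0.487% and 0.214% in bystander cells. The study chose them through its 4-hour samples and clustered them on these arrays, so this is not independent evidence. Without experiment 1 the irradiated counts at the 4 times were 6, 11, 0 and 12, where 1.12%, 0.107%, 0.0753% and 1.07% of all probes were called higher. The bystander counts were then 0, 8, 0 and 0, with 3, 8, 12 and 0 higher calls on the whole array. Leaving out experiment 2 gave 0, 10, 10 and 12 in irradiated cells, against 0%, 0.0991%, 0.935% and 2.15% of all probes. No probe of the array was called in bystander cells without experiment 2, so the counts of 0 there are no result about the metallothioneins. Without experiment 4, 6 were called in irradiated cells at 4 hours (0.456% of all probes) and 1 in bystander cells (0.254%), and at 6 hours no probe of the array was called in bystander cells. All of these counts were at least 10 without experiment 3. With slide beside experiment the irradiated counts were 10, 11, 13 and 13 and the bystander counts 3, 0, 0 and 0, against 0.86%, 0.119%, 1.41% and 4.32% and 0.432%, 0%, 0.0793% and 0% of all probes. The largest ratios were those of MT1E (2.61 in irradiated cells), MT1G (2.55 in bystander cells) and MT1X (2.50 in irradiated cells), all at 0.5 hours. The list median at 0.5 hours was 2.32 in irradiated and 2.30 in bystander cells. The other metallothioneins on the array, with 2 probes, did not pass the filter.

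Of the 12 tested probes of other SLC30 exporters, 2 were called higher in irradiated cells at 0.5 hours, with ratios of 0.65 for SLC30A6 and 0.47 for SLC30A7, where 5.78% of all probes were called higher. Both proteins load zinc into the secretory pathway. The SLC30A7 call was lost with any 1 experiment left out (adjusted p from 0.128 to 0.286), and that of SLC30A6 without experiment 1, 2 or 3 (0.152 to 0.210). Of the 13 probes of other SLC39 importers, 1 was called lower in irradiated cells at 0.5 hours, SLC39A3 (-0.43 ± 0.21, adjusted p = 0.0941), and 1 at 6 hours, SLC39A7 (-1.29 ± 0.68, adjusted p = 0.0205). Of all probes 4.1% and 5.62% were called lower at these times, so 1 of 13 is near the background. With 1 experiment left out SLC39A3 was never called (adjusted p from 0.185 to 0.264), and SLC39A7 was called each time (0.0337 to 0.0876). With slide beside experiment SLC39A7 was the 1 called of these 4 transporters (adjusted p = 0.0490), and with slide in place of experiment none was (0.206 to 0.282). No probe of either list was called in bystander cells, where ratios ran from -0.85 to 0.56. None of the 21 probes of copper and iron genes and none of the 4 probes of chromatin regulators was called in either treatment, with ratios from -0.74 to 0.51 and from -0.53 to 0.34.

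Genes of the oxidative stress response and of glutathione synthesis were also read. Of 15 tested probes, 8 were called higher at 0.5 hours in irradiated and 8 in bystander cells, and 6, 5 and 6 in irradiated cells at 2, 4 and 6 hours against 0, 4 and 2 in bystander cells. For these counts the shares of all probes called higher are those given for the clustered metallothioneins. Without experiment 1 the irradiated counts of higher calls were 5, 0, 0 and 3, and without experiment 2 they were 0, 0, 1 and 2, beside the all-probe shares given there. No probe of the list was called in bystander cells in either case, when at most 14 probes of the array were. Leaving out experiment 3 gave 5, 0, 4 and 6 higher calls in irradiated cells (3.41%, 0.226%, 0.503% and 3.91% of all probes) and 5, 0, 6 and 4 in bystander cells (2.34%, 0.0713%, 0.372% and 0.725%). Without experiment 4 the irradiated counts were 9, 8, 3 and 2, against 1.2%, 11%, 0.456% and 0.535% of all probes. The bystander counts were then 9, 8, 4 and 0, against 1.8%, 8.56%, 0.254% and 0%. With slide beside experiment the irradiated counts were 5, 0, 3 and 4, against 0.86%, 0.119%, 1.41% and 4.32% of all probes, and the bystander counts 3, 0, 0 and 0, against 0.432%, 0%, 0.0793% and 0%. Counts of 0 where almost no probe of the array was called are no result about this list. The largest ratios were those of SLC7A11, the cystine importer that feeds glutathione synthesis (1.73 in irradiated cells), SRXN1 (1.37 in bystander cells) and SOD2, the mitochondrial superoxide dismutase (1.29 in bystander cells), all at 0.5 hours.

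The members fell beside different genes in likeness over the 72 arrays (69 for MT3 probe A_23_P129629), measured as Pearson's r after the mean of each experiment and time point was removed. The arrays share controls and experiments, so these values are descriptions. MT1F was most like MT1M (0.96), MT1L (0.96) and MT1E (0.95). SLC30A1 probe A_24_P937095 was most like GCLM (0.889) and SLC7A11 (0.877), both of glutathione synthesis, and ZC3H12C (0.875), and its other probe was most like DUSP2 (0.836) and ME1 (0.816). SLC39A14 probe A_23_P59950 was most like ICAM1 (0.953), the adhesion molecule, RIPK2 (0.916) and MMP10 (0.901), and SLC39A8 was most like PBEF1 (0.926), TNFAIP3 (0.923) and C8orf4 (0.917). The 2 importers had r = 0.821 with each other, and r of 0.721 and 0.732 with MT1M. MTF1 had r = 0.451 with MT1M and was most like MTPN (0.890). SLC39A10 was most like KIF5B (0.917), and MT3 was most like OR2H1 (0.946) by probe A_23_P129629 and FLJ40722 (0.76) by the other.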

How the data were processed

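The authors deposited the scanner output of 72 single-colour arrays, in which per the file headers Agilent Feature Extraction 9.1.3.1 had detrended the intensity of each spot. No normalization between arrays had been applied by the authors. Their deposited log2 table, which was scaled here to its mean 75th percentile before the fit, served as an alternative only. Intensities were scaled to a common 75th percentile, floored at 1 and taken to log2; non-uniform spots became missing values and replicate spots were averaged. As in the study's methods, a probe was dropped when more than 10% of its spots were dim or non-uniform. On each array 65.7% to 76.9% of spots lay well above background, and the number of arrays limits the precision.

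Each time point occupied 3 slides of its own. Every slide held all 3 treatments, but experiments were split across slides, and the control of experiment 2 was never on the slide of its treated arrays. Its 12 arrays were fitted with limma 3.58.1 (R 4.3.3, intensity trend, 6 residual degrees of freedom), using terms for treatment and for experiment, and p-values were adjusted by Benjamini-Hochberg over all probes tested. Experiment was a block because, by the methods, its dishes were seeded from 1 pool and handled in parallel. Array deviations from the group means correlated above 0.1 for all 12 same-experiment pairs at 4 of the 6 times, and for 10 of 12 at the 2 others (4 and 6 hours). The scripts were tested on simulated data.

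Gene names followed the annotation of 60 files; in the other 12, SLC30A1 probe A_24_P937095 is named U68494. Every probe of the members is reported, and of each other list at most 3 genes with the largest called ratio. Members, lists and this rule were chosen with earlier results of these data known. The alternatives were the scaling, background correction, filter, blocks, variance trend, the authors' table and leaving out each experiment.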

Additional observations from a re-analysis of the deposited data

Results flagged for a closer look

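Of the 195 groups of 4 arrays of tested member probes, 15 held an array set apart from the rest of its group by most of the group's range (Dixon's test), and chance gives about 1 in 20. Of the 15, 8 lay in experiment 3 at 24 hours, the experiment whose mean stood apart on 46 probes. There SLC39A8 had log2 levels of 9.94 (control), 10.99 (irradiated) and 10.85 (bystander), SLC39A14 probe A_23_P59950 had 15.75 (irradiated) and 15.72 (bystander), SLC39A14 probe A_24_P333479 had 9.11 (bystander), and MT3 probe A_23_P315273 had 9.80 (irradiated) and 8.88 (bystander). IL6, IL23A, IL1A, CXCL2 and PTGS2 had high means over the same 3 dishes, with IL6 at a mean of 18.04 against 9.53 to 9.97 in the other experiments. The part of these dishes' state in the members' levels was not tested.

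The other arrays far from the rest of their group lay closer to them. MT1F stood at 8.03 in bystander cells at 1 hour in experiment 4, and at 7.69 in irradiated cells at 2 hours in experiment 3. The MT1M control of experiment 4 at 4 hours was at 10.87. MTF1 was at 10.65 in irradiated cells at 2 hours in experiment 1. SLC39A10 was at 8.88 in bystander cells at 2 hours in experiment 3 and at 10.33 in irradiated cells at 6 hours in experiment 4. SLC39A14 probe A_24_P333479 was at 6.54 in bystander cells at 4 hours in experiment 3.

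A probe that the filter removed also showed a difference. SLC39A14 probe A_24_P383356, dim on 23.6% of arrays, had a log2 ratio of 1.11 in irradiated cells at 0.5 hours when all probes were tested (limma, adjusted p = 0.0995), in the direction of the other 2 probes of the gene.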

How the results depend on the processing

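All 28 calls of members against control kept their direction in all 15 alternatives. Of the 28, 26 were made with quantile normalization, 27 in the authors' table, 25 without the variance trend and 19 with normexp. With slide as a random block 28 were made (correlation within slides from -0.248 to 0.084). Without scaling 11 were made, beside 8 new calls, and without the filter on dim probes 12. Without the replicate block 1 was made, and the counts were 0 for irradiated cells at 0.5, 4 and 6 hours and for bystander cells at 0.5, 2 and 4 hours, and 1 for irradiated cells at 2 hours, when at most 0.19% of all probes were called in any of these comparisons. With slide as a fixed block in place of experiment they were 1, 1, 0 and 0 for irradiated cells at 0.5, 2, 4 and 6 hours and 2, 0 and 1 for bystander cells at 0.5, 2 and 4 hours, beside 0.162%, 0.0674%, 0.0872% and 0.0872% and 0.769%, 0% and 0.0634% of all probes called higher. Counts of 0 in these fits are no result about the members. Without scaling they were 2 and 2 for irradiated cells at 0.5 and 6 hours and 2, 0 and 8 for bystander cells at 0.5, 2 and 4 hours, beside 0.448% and 1.12% and 0.361%, 0% and 14.6% of all probes higher; the median of all probes then moved to between -0.38 and 0.42. Without the filter on dim probes they were 5, 0 and 2 for irradiated cells at 0.5, 4 and 6 hours and 3 and 0 for bystander cells at 0.5 and 4 hours, beside 1.06%, 0.129% and 0.869% and 0.974% and 0.0756% of all probes. With normexp the count for irradiated cells at 4 hours was 1 (0.686% of all probes), and in the authors' table that for bystander cells at 4 hours was 5 (2.31%). With experiments 1 and 2 averaged, an alternative chosen after seeing the data, the counts were 0, 1 and 0 for irradiated cells at 0.5, 2 and 4 hours and 0 for bystander cells at 0.5, 2 and 4 hours, when at most 0.127% of all probes were called. With slide as a fixed block beside the replicate block, also chosen after seeing the data, they were 5, 1 and 1 for irradiated cells at 0.5, 1 and 2 hours and 3, 0 and 0 for bystander cells at 0.5, 2 and 4 hours, beside 0.86%, 1.13% and 0.119% and 0.432%, 0% and 0.0793% of all probes. The cause of these changes was not tested.

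With each experiment left out in turn, the count in irradiated cells ran from 0 to 8 at 0.5 hours, 1 to 4 at 2 hours, 0 to 2 at 4 hours and 2 to 4 at 6 hours, and in bystander cells from 0 to 7, 0 to 2 and 0 to 3 at 0.5, 2 and 4 hours. At 4 hours the count was 0 in irradiated cells without experiment 1, 2 or 4 (0.0753%, 0.935% and 0.456% of all probes higher) and in bystander cells without experiment 1 or 2 (0.0476% and 0%). At 2 hours 1 member probe was called in irradiated cells without experiment 1, 2 or 3 (0.107%, 0.0991% and 0.226% of all probes), and 4 without experiment 4 (11%). At 6 hours 2 were called in irradiated cells without experiment 2 or 4 (2.15% and 0.535%). All of these are fits on fewer arrays. At 24 hours, for bystander cells at 1 and 6 hours and between irradiated and bystander cells the count was 0 in every alternative, and for irradiated cells at 1 hour in all but that with slide beside the replicate block. Signal over background limits MT1F, SLC39A8 and the dimmer SLC39A14 and MT3 probes, whose control levels lay near the lower end of the scale.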
